A study of Mus musculus with 14 samples.

Results

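The Prader-Willi/Angelman region of mouse chromosome 7 holds a cluster of imprinted genes, and 6 of them were followed here in cloned and IVF-derived blastocysts: *Ube3a*, *Snrpn*, *Ndn*, *Magel2*, *Mkrn3* and *Peg12*. Members were the probes that are not array controls and whose gene name in the files is 1 of these 6, which gave 6 of 27962 gene names and 9 of 41174 gene probes. *Ube3a* had 3 probes, *Snrpn* had 2 and each other gene had 1. In *Ube3a*, the probes disagreed. Of its 3 probes, 2 were higher in clones than in IVF embryos and the last was not called. *Magel2* was lower in clones at a signal close to background. *Peg12* was called higher with all clones set against all IVF embryos, but not against female embryos alone. *Snrpn*, *Ndn* and *Mkrn3* lay within or close to the IVF range. With all clones 1 *Snrpn* probe passed the test narrowly, but neither *Snrpn* probe was called against female embryos alone.

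An imprinted gene is transcribed mainly from the copy inherited from 1 parent. In this region a methylation mark set in the oocyte at the promoter of *Snrpn* keeps the maternal copies of *Snrpn*, *Ndn*, *Magel2*, *Mkrn3* and *Peg12* silent, so that they are read from the paternal chromosome. *Ube3a* is read from both chromosomes in most tissues and mainly from the maternal one in neurons, where a long antisense transcript that starts near *Snrpn* crosses the paternal copy. In people, loss of the paternal genes causes Prader-Willi syndrome, and loss of maternal *UBE3A* causes Angelman syndrome. The probes do not tell the parental copies apart, so the values below are sums over both.

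The arrays were hybridized with RNA of 14 blastocyst samples at embryonic day 4: 4 fusion clones, 4 injection clones, 3 male IVF embryos and 3 female IVF embryos. Both kinds of clone were labelled female and were made from cumulus cells, the somatic cells around the ovulated oocyte, by fusing the donor cell with an enucleated oocyte or by injecting its nucleus. All embryos were cultured in KSOM, a medium for preimplantation embryos. The study's methods give B6 x DBA/2 F1 (BDF1) mice as oocyte donors and heterozygous *Xist* knockout BDF1 mice as the source of donor cells, whereas the labels of these arrays give no strain, genotype or age. The protocol in the labels speaks of RNA of single embryos after linear amplification, and nothing in the labels says which samples share a day or a culture, so that p-values measure the spread between these samples, which may be partly technical. RNA of whole embryos cannot tell fewer cells of a type from less RNA per cell.

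To place the genes, the 250 bases before the RefSeq start (GRCm38.p6) are printed for the 3 genes with a called probe that moved by over 1 on the log2 scale and for the *Snrpn* start that also serves *Snurf*. Each runs 5′ to 3′ on the strand of its gene, with every CpG, the dinucleotide that carries the imprint's methylation, in capitals.
*Ube3a*, chr7:59228500-59228749, plus strand: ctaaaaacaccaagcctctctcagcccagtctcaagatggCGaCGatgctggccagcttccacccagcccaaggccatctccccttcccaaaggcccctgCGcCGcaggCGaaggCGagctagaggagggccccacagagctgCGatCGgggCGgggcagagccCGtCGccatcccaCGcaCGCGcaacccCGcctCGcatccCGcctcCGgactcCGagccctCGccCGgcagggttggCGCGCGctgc
*Snrpn*, chr7:60005200-60005449, minus strand: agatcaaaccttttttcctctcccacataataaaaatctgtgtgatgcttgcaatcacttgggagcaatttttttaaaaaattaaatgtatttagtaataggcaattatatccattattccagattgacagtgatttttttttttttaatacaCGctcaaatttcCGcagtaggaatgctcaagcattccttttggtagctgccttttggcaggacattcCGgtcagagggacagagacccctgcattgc
*Magel2*, chr7:62376729-62376978, plus strand: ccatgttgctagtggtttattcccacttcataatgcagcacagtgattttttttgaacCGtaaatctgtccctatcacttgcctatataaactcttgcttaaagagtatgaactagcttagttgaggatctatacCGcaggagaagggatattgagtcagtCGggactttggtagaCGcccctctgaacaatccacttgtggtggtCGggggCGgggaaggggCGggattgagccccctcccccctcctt
*Peg12*, chr7:62464511-62464760, minus strand: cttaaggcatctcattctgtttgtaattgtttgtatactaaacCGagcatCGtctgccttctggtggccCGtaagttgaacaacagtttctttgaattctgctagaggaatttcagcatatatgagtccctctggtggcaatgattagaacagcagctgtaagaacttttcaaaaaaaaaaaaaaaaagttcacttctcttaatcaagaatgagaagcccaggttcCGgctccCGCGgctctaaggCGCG
The *Ube3a* window held 24 CpG, a number reached by 12% of 32851 promoters of the same table. The *Magel2* window held 7 (reached by 46.3%), that of *Peg12* 8 (43.0%) and that of *Snrpn* 3 (71.0%), against a median of 6. The arrays did not measure methylation, and the windows are shown as a description of the genes only.

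Values are log2 intensities after quantile normalization, with a floor of 4 (an intensity of 16) below which values have no order. A probe counted as detected where the scanner software marked it well above background, and as called where limma's adjusted p was below 0.05. Between 57.45% and 65.22% of gene spots were well above background on each array. Each group lay on 1 slide of its own. The clone arrays came from 1 scanner model and software version with 0 processed signals below 0, and the IVF arrays from another with 6790 to 9981 such spots an array. For every comparison of clones with IVF embryos, slide, scanner and software cannot be told apart from the group. Between the kinds of clone, and between male and female embryos, slide cannot be told apart from the group either. Markers of the epiblast were well above background on all 14 arrays for 4 of 4 genes and those of the trophectoderm for 6 of 6. Markers of the primitive endoderm were detected on every array of the group for 3 to 6 of 6 genes. With all clones set against all IVF embryos, 3 of 7 trophectoderm and 4 of 14 primitive endoderm probes were called lower and none higher (5 of 7 for the trophectoderm with the 75th percentile scaling or the deposited values), and of 4 epiblast probes 1 was called higher. Of 9 probes for oocyte genes 1 was called lower. The summed level of 8 cumulus cell markers ran from 10.02 to 11.37 in clones and from 9.67 to 11.15 in IVF embryos (9.9 to 9.97 in females). Of the 8, 5 were detected on no array in each kind of clone, against 1 in male and 4 in female embryos. These marker counts and sums used the brightest probe of each gene. Another probe of *Has2* was detected on 2 of 4 fusion clone arrays, and another of *Ptx3* on 1 of 4 injection clone arrays. Of 12 tested cumulus cell probes 1 was called higher in all clones and 0 lower, with a median difference of -0.46 (0.1 with the deposited values). The called one was *Amhr2* (1.63 on the log2 scale, limma, adjusted p = 0.00559), and the others ran from -1.23 to 0.21. Over all probes in that comparison 9.16% were called higher and 13.1% lower. The part of these levels in the results below was not tested.

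**Figure D1:**
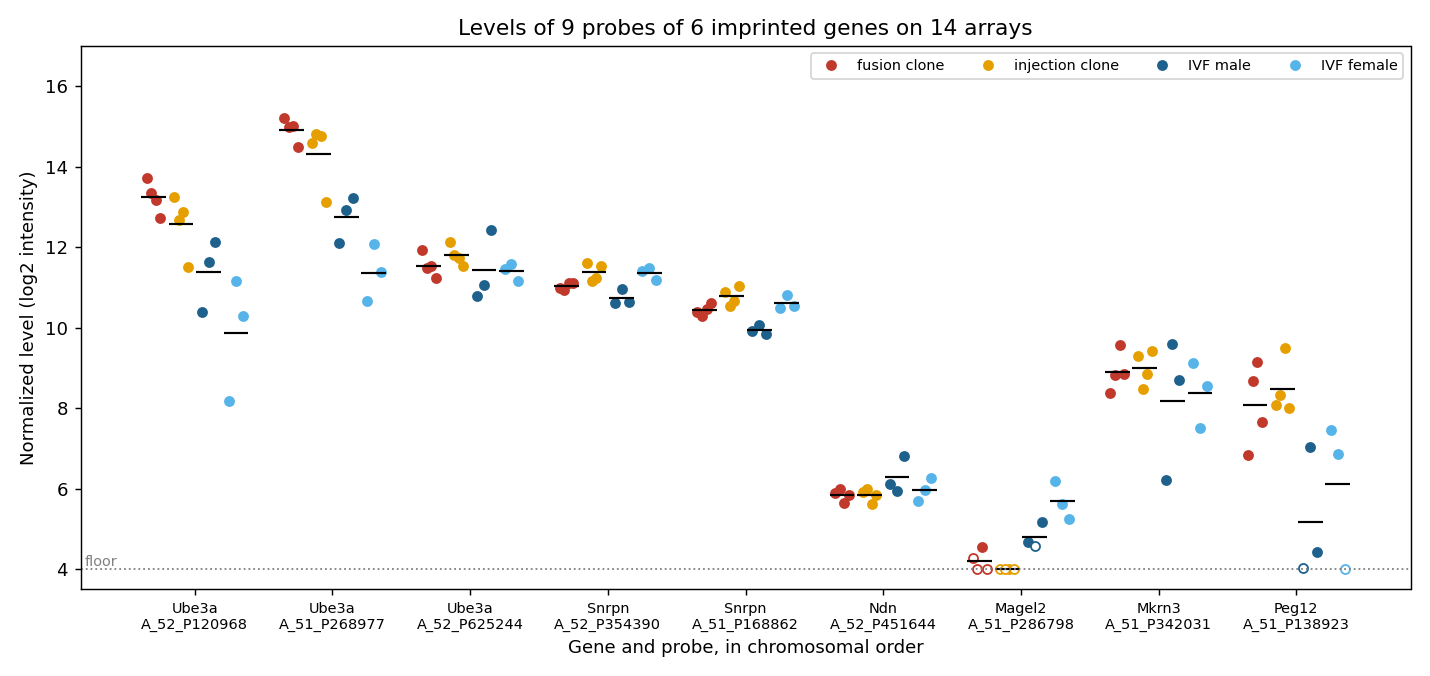
Normalized level (log2 intensity) of each of the 9 probes on each of the 14 arrays, by group, with 1 point an array, a black line at the group mean and open points where the probe was not well above background. The first 2 *Ube3a* probes stood higher in 7 of 8 clones than in every IVF embryo, the last *Ube3a* probe did not, and *Magel2* lay at or near the floor in clones.

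*Ube3a* encodes the E3 ubiquitin ligase that gave the HECT family of ligases its name. Its brightest probe, A_51_P268977, read 15.21, 14.97, 15.02 and 14.48 in the fusion clones and 14.58, 14.82, 14.76 and 13.12 in the injection clones. In IVF embryos it read 12.11, 12.93 and 13.21 in males and 10.65, 12.07 and 11.38 in females. Injection clone 4 was below the highest male embryo, and the other 7 clones were above all 6 IVF embryos. Before normalization the processed signals ran from 9862 to 34744 in clones and from 1507 to 9515 in IVF embryos.

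The probe A_52_P120968, which lies 16493 bases nearer the 5′ end of the gene in the files' coordinates, gave group means in the same order (fusion clones, injection clones, male and female embryos) at a lower level. It read 13.72, 13.35, 13.17 and 12.73 in fusion clones and 13.26, 12.67, 12.88 and 11.50 in injection clones. The IVF embryos read 10.39, 11.62 and 12.12 (male) and 8.17, 11.16 and 10.29 (female). Again injection clone 4 was the only clone inside the IVF range.

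The probe A_52_P625244, 1064 bases further toward the 3′ end than the brightest probe, ranged from 11.23 to 12.12 in clones and from 10.78 to 12.43 in IVF embryos, and no clone lay outside the IVF range. All 3 probes are annotated to the same transcript and were well above background on all arrays. The difference between the brightest and the 3′ probe within an array was 3.25 to 3.5 in fusion clones, 1.59 to 3.02 in injection clones, 0.78 to 1.86 in male embryos and -0.81 to 0.49 in female embryos. The groups did not share a value of this difference except between injection clones and male embryos.

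Female clones were first compared with female IVF embryos. Between fusion clones and female embryos limma called 3 of the 9 member probes, against 9.37% of all 32370 probes tested. The brightest *Ube3a* probe was 11.7-fold higher in fusion clones (log2 difference 3.55 ± 0.37 SE, adjusted p = 0.00516), with group means of 14.92 ± 0.31 and 11.37 ± 0.71 (SD, n = 4 and 3). A_52_P120968 was 10.3-fold higher (3.37 ± 0.69, adjusted p = 0.0347), and A_52_P625244 differed by 0.14 ± 0.23 (adjusted p = 0.695, 95% interval -0.40 to 0.69). The call of the brightest probe held without any 1 array. That of A_52_P120968 was lost without any 1 of the 4 fusion clones (adjusted p 0.0650 to 0.0872) or without female embryo 3 (0.0752), and with no filter on detection (0.0649).

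Between injection clones and female embryos 2 of 9 member probes were called, against 3.61% of 32801. The brightest *Ube3a* probe was 7.74-fold higher (2.95 ± 0.54, adjusted p = 0.0453). A_52_P120968 differed by 2.70 ± 0.78 in the same direction, but was not called (adjusted p = 0.110). A_52_P625244 differed by 0.40 ± 0.19 (adjusted p = 0.281). The call of the brightest probe was lost when any 1 array other than injection clone 4 was left out (adjusted p 0.0564 to 0.115) and stood without that clone (3.35, adjusted p = 0.0237). It was also lost with the deposited values (adjusted p = 0.0535), a floor of 1 or 32 (0.0576 and 0.0555), no filter (0.0736) and the mean over the 3 probes (2.02, 0.0685). The 2 comparisons share the female embryos.

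**Figure D2:**
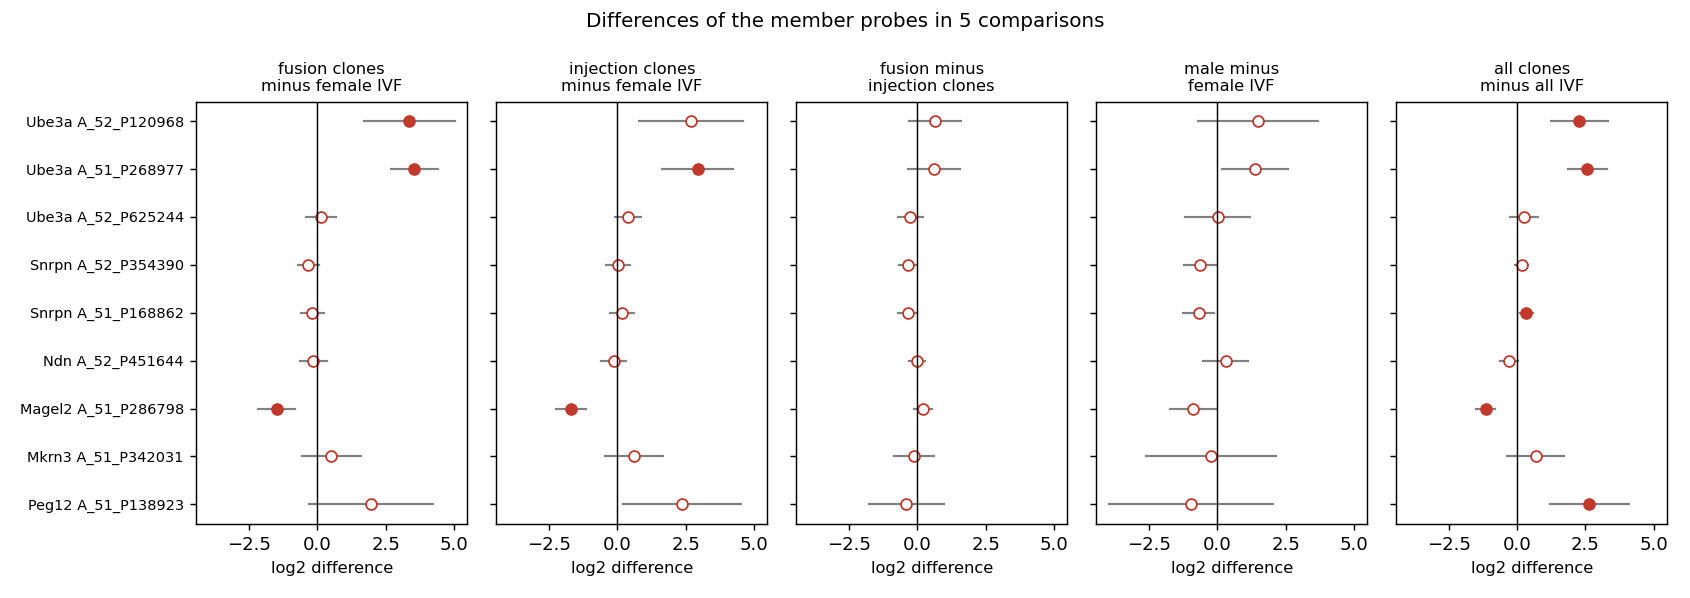
log2 difference of each member probe in the 5 comparisons, with the 95% interval from limma and filled points where the adjusted p was below 0.05. The first 2 *Ube3a* probes lie to the right of 0 and *Magel2* to the left in the comparisons of clones with IVF embryos, and the comparison of the 2 kinds of clone has no filled point.

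*Magel2* encodes a protein of the MAGE family that works with the ubiquitin ligase TRIM27 in recycling membrane proteins from endosomes. Its probe was the dimmest of the 9. In fusion clones it read 4.27, 4.0, 4.55 and 4.0, and in all 4 injection clones 4.0, the floor. In IVF embryos it read 4.68, 4.58 and 5.17 in males and 6.19, 5.61 and 5.25 in females. All 8 clones were below all 6 IVF embryos, though the gap between the highest clone and the lowest IVF embryo was 0.03. The probe was well above background on 2 of 8 clone arrays (fusion clone 3 and injection clone 3) and on 5 of 6 IVF arrays (not male 2). The processed signal was 8.2 to 28.4 in clones and 19.9 to 55.8 in IVF embryos, before normalization, so the unnormalized ranges did overlap.

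*Magel2* was 2.79-fold lower in fusion clones than in female embryos (log2 difference -1.48 ± 0.28, adjusted p = 0.0283) and 3.21-fold lower in injection clones (-1.68 ± 0.23, adjusted p = 0.0282). The injection clones had no spread of their own because all 4 values stood at the floor. Both folds follow the floor. With a floor of 32 both differences were -0.68 and neither was called (adjusted p = 0.119 and 0.156). Neither was called with the 75th percentile scaling (-1.15 and -1.38, adjusted p = 0.0815 and 0.0524), normexp background correction (-0.46 and -0.54, 0.0981 and 0.0802) or the deposited values (-1.23 and -1.70, 0.0949 and 0.077), and with a floor of 1 the injection call was lost (-2.06, adjusted p = 0.0572). The fusion call was lost without any 1 array except female embryo 3, and the injection call without injection clone 1, 2 or 3 or female embryo 2. The probe is annotated in the files to a cDNA clone and not to a RefSeq transcript.

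*Peg12*, an intronless gene of the Frat family, whose proteins bind the kinase GSK3, read 6.82, 8.68, 9.14 and 7.66 in fusion clones and 8.08, 8.32, 9.5 and 8.0 in injection clones. In IVF embryos it read 4.02, 7.03 and 4.41 in males and 7.47, 6.86 and 4.0 in females. The IVF embryos thus fell into 3 at or near the floor, and 3 above it, with both sexes on either side. It was well above background on 8 of 8 clone arrays and 4 of 6 IVF arrays. Against female embryos it differed by 1.97 ± 0.95 in fusion clones (adjusted p = 0.243) and by 2.37 ± 0.89 in injection clones (adjusted p = 0.185), neither called.

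The *Snrpn* probes share 43 of their 60 bases. *Snrpn* encodes SmN, a form of the SmB protein of the spliceosome core that is known from brain and heart. The brighter probe, A_52_P354390, read 11, 10.95, 11.12 and 11.11 in fusion clones, 11.61, 11.17, 11.24 and 11.54 in injection clones, 10.61, 10.97 and 10.63 in male embryos and 11.41, 11.49 and 11.17 in female embryos. The injection clones and female embryos overlapped, the fusion clones lay just under the females, and 2 of 3 males were lowest of all. Neither probe was called in fusion clones (-0.32 ± 0.17 and -0.17 ± 0.18) or injection clones (0.03 ± 0.18 and 0.17 ± 0.18) against female embryos. The brighter probe exceeded the other by 0.48 to 0.91 on every array.

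*Ndn* encodes necdin, a MAGE protein known for holding back growth in neurons. It was dim and even, from 5.63 to 6.0 over 8 clones and from 5.69 to 6.81 over 6 IVF embryos, and was well above background on all 14 arrays. The difference was -0.14 ± 0.20 in fusion clones (adjusted p = 0.672) and -0.13 ± 0.19 in injection clones (adjusted p = 0.685), and its sign turned under the 75th percentile scaling in both (0.26 and 0.19). *Ndn* and *Magel2* are next to each other on the chromosome, and *Ndn* was above the floor on all 14 arrays. *Mkrn3*, a ubiquitin ligase known for holding back puberty, ranged from 8.37 to 9.57 in clones and from 6.21 to 9.59 in IVF embryos, with male embryo 1 lowest. It differed by 0.51 ± 0.45 in fusion clones (adjusted p = 0.499) and by 0.62 ± 0.44 in injection clones (adjusted p = 0.456).

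Fusion and injection clones came from the same scanner model. None of the 9 member probes was called between them by limma, against 0% of 32187 probes, and at an unadjusted p below 0.05 there were 2 of 9 members and 1975 of all probes. Those 2 were the *Snrpn* probes, lower in fusion clones by 0.35 ± 0.13 and 0.34 ± 0.14 (adjusted p = 0.778 and 0.812). The brightest *Ube3a* probe differed by 0.60 ± 0.40 (95% interval -0.35 to 1.55) and *Magel2* by 0.20 ± 0.14 (-0.13 to 0.54). The intervals leave room for a change of over 2-fold in *Ube3a* and *Peg12* (-1.76 to 0.97).

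Male and female IVF embryos also came from 1 scanner model. No member was called, against 0.0593% of 32021 probes, and 4 of 9 were at an unadjusted p below 0.05 (2488 of all probes). The brightest *Ube3a* probe was higher in males (1.38 ± 0.48, adjusted p = 0.609), A_52_P120968 differed by 1.51 ± 0.88, and *Magel2* was lower in males (-0.87 ± 0.34, adjusted p = 0.638). Both *Snrpn* probes were lower in males, by 0.62 ± 0.24 and 0.67 ± 0.22 (adjusted p = 0.635 and 0.578). Blocking on the replicate number left 0 called probes over the whole array in place of 19. By their means, male embryos lay between the female embryos and the clones for the brightest *Ube3a* probe (12.75) and for *Magel2* (4.81).

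With all 8 clones set against all 6 IVF embryos, as the mean of each pair of groups in 1 fit, 5 of 9 member probes were called, against 22.3% of 34946. The deposited values, scaled differently, called 4 of 9 members (not *Snrpn*), moved the median of all probes from -0.07 to 0.12 and took the share of calls that were higher in clones from 41.1% to 55.9%. The brightest *Ube3a* probe was 5.90-fold higher in clones (2.56 ± 0.32, adjusted p = 0.000554) and A_52_P120968 was 4.87-fold higher (2.28 ± 0.47, adjusted p = 0.00569). *Peg12* was higher (2.64 ± 0.66, adjusted p = 0.0148), with 3 of 6 IVF arrays at or near the floor, and by 1.54 under normexp. *Magel2* was lower (-1.14 ± 0.16, adjusted p = 0.000898), with 6 of 8 clone arrays at the floor and 2 of 8 well above background, and the difference was -0.36 under normexp. These 4 calls held without any 1 array. The *Snrpn* probe A_51_P168862 passed narrowly (0.34 ± 0.11, adjusted p = 0.0453), was lost without 10 of the 14 arrays in turn (adjusted p up to 0.0910), and its overlapping partner was not called (0.17 ± 0.11, adjusted p = 0.308). The group means of A_51_P168862 were 10.44 in fusion clones, 10.78 in injection clones, 10.61 in female embryos and 9.94 in male embryos. Only the male mean lay below those of both kinds of clone. *Magel2* was the 1 member of 9 whose groups did not overlap, which 6.27% of all probes shared. The third *Ube3a* probe was not called (0.26 ± 0.24, adjusted p = 0.482), though it was without male embryo 3 (0.51, adjusted p = 0.0377).

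The 3 differences of *Ube3a* spanned 2.30 on the log2 scale. Of 1797 genes with exactly 3 tested probes, 9.96% had a span as wide, and their median span was 0.99.

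**Figure D3:**
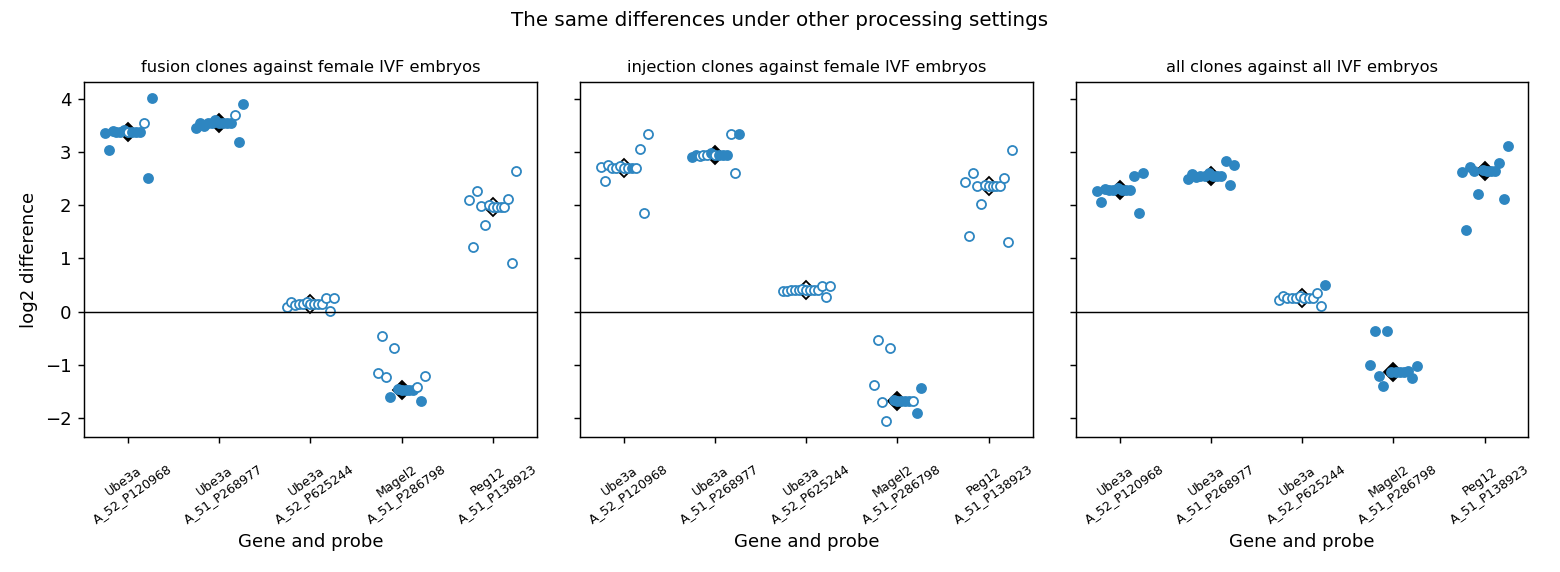
log2 difference of the *Ube3a*, *Magel2* and *Peg12* probes in the 3 comparisons of clones with IVF embryos, as reported (black diamonds) and under each other setting except the mean over the probes of a gene, with the lowest and highest values when 1 array was left out (blue points). Filled symbols have an adjusted p below 0.05. No point of these probes crosses 0, and the *Magel2* difference moves between -2.06 and -0.36.

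Around *Ube3a*, a probe named C230091D08Rik in the files lies 5158 bases past the last *Ube3a* probe. It read 10.43, 10.20, 9.84 and 9.24 in fusion clones and 10.73, 10.86, 10.90 and 10.01 in injection clones, against 8.53, 8.46 and 8.35 in male and 7.80, 7.48 and 8.79 in female embryos. No clone overlapped an IVF embryo, which held for 6.27% of all probes. It rose 3.74-fold in fusion clones against female embryos (1.90 ± 0.42, adjusted p = 0.0402), 6.06-fold in injection clones (2.60 ± 0.39, adjusted p = 0.0319) and 4.11-fold in all clones (2.04 ± 0.25, adjusted p = 0.000484). RefSeq lists the name among the older names of *Snhg14*, the host transcript of small nucleolar RNAs that runs antisense to *Ube3a*, but the files place this probe on the strand of *Ube3a*, so it is given by its own name. A second probe under an older name of *Snhg14*, D7Ertd715e, lies on the opposite strand and was not called (0.53 in all clones, adjusted p = 0.229). *Snurf*, which shares the *Snrpn* transcript, differed by 0.12 (adjusted p = 0.476), and *Ipw* was well above background on 3 of 8 clone and 1 of 6 IVF arrays.

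The genes on either side are not imprinted for the most part. Of 29 tested probes of 14 flanking genes from *Tubgcp5* to *Fan1*, 1 was called higher and 3 lower in all clones, against 9.16% and 13.1% of all probes. Their median difference was 0.04, against -0.07 over all probes. The deposited values gave 4 higher and 2 lower (median 0.46) and normexp 3 of each (0.06). The higher one was *Klf13*, a zinc-finger transcription factor gene (1.96 ± 0.47, adjusted p = 0.0114), whose other probe was not called. The lower ones were *Nipa2*, a magnesium transporter gene (-1.07 ± 0.26), *Cyfip1*, of the WAVE actin regulatory complex (-0.46 ± 0.11), and *Tubgcp5*, of the gamma-tubulin ring complex (-0.65 ± 0.20). Each had further probes that were not called, at 0.36 (adjusted p = 0.0523) for *Cyfip1*, -0.30 to 0.43 on 3 probes for *Nipa2* and -0.03 and 0.49 for *Tubgcp5*. In fusion clones 1 flanking probe was called higher and 2 lower of 23, and in injection clones 0 of 28, against 9.37% and 3.61% of all probes called.

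**Figure D4:**
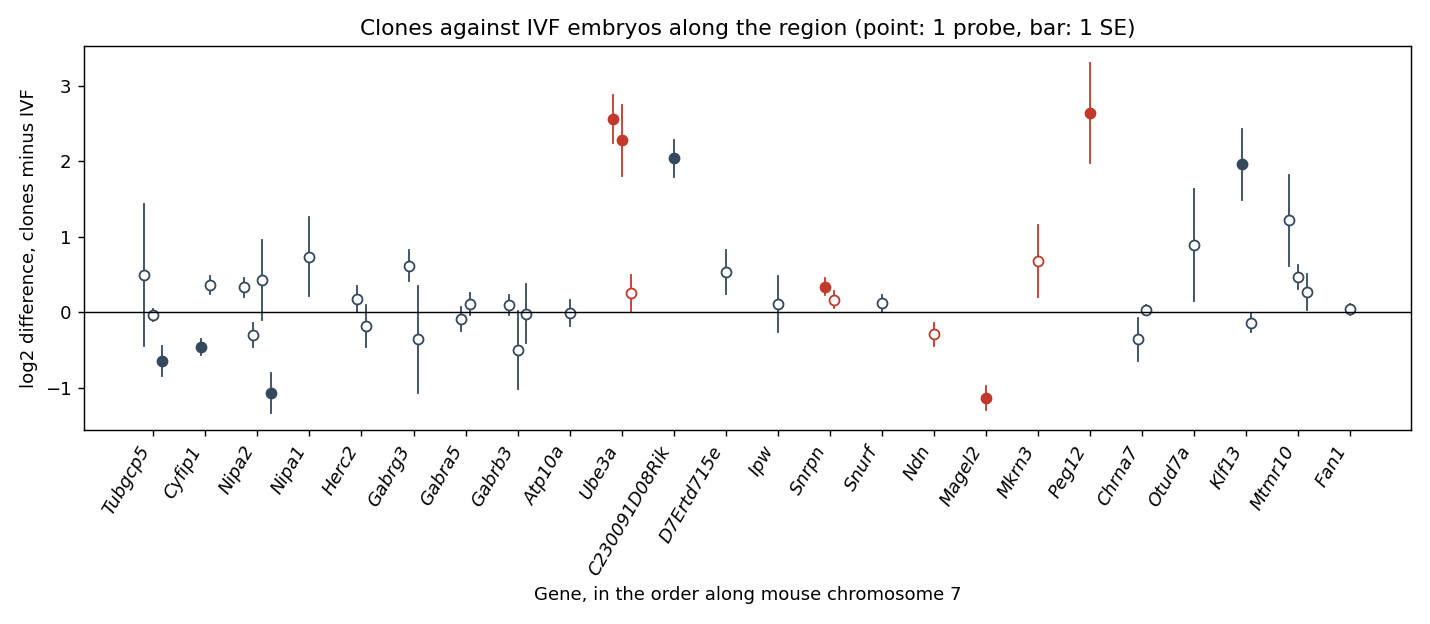
log2 difference of all clones against all IVF embryos for each tested probe of the member genes (red) and their neighbours (blue) in the order along chromosome 7, with bars of 1 SE and filled points where the adjusted p was below 0.05. The raised points are 2 of *Ube3a*, C230091D08Rik, *Peg12* and 1 of *Klf13*, with *Magel2*, *Nipa2*, *Cyfip1* and *Tubgcp5* below 0 and the A_51_P168862 probe of *Snrpn* just above it.

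Genes whose proteins work with the members were counted from lists, with all clones set against all IVF embryos. Over all probes 9.16% were called higher and 13.1% lower there, the shares to set each list against. Of 21 probes of 9 genes for partners of UBE3A, ubiquitin-conjugating enzymes and complex members, 6 were called higher and 3 lower (median 0.09). *Ube2d3*, encoding an E2 enzyme, rose on 2 of 4 probes (0.97 ± 0.15 and 1.02 ± 0.24, with 0.09 on each of the others). *Ube2d2a*, encoding another E2 enzyme, rose on 1 of 3 (1.01 ± 0.18), and its other probes gave 0.03 (adjusted p = 0.890) and -0.44 (adjusted p = 0.204). *Neurl4*, which binds the partner HERC2, fell by 0.93 on the log2 scale. The 2 called probes of *Ube2l3*, encoding a further E2 enzyme, went opposite ways (0.72 and -0.70). The lower one was not called under normexp or with the deposited values (limma, adjusted p = 0.0706 and 0.0551). Over the list normexp gave 6 higher and 2 lower, and the deposited values 6 and 1.

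Of 18 probes of 10 genes for the TRIM27, USP7, WASH and retromer proteins that act with MAGEL2, 3 were called higher and 7 lower (median -0.25). With the 75th percentile scaling, normexp or the deposited values 2 were higher and 7 lower. *Washc2* was lower (-0.98 ± 0.12, adjusted p = 0.000398), as were 2 of 3 probes of *Vps35*, of the retromer (-0.83 and -0.73, with 0.59 on the uncalled one), and both of *Washc5* (-0.94 and -0.71), whereas 2 probes of *Washc4* were higher (2.79 ± 0.49 and 1.21 ± 0.30). Of 11 probes of 7 Sm core genes, the usual partners of the *Snrpn* product, 1 was called higher (*Snrpf*, 0.69 ± 0.16, with -0.21 on its other probe) and 4 lower (3 probes of *Snrpd3*, -1.14 to -0.47, and 1 of *Snrpb*, -0.82).

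Type II MAGE genes, the family of *Ndn* and *Magel2*, had 8 tested probes, of which 0 were called higher and 3 lower (median -0.91). *Maged1* was 5.2-fold lower in all clones (-2.38 ± 0.27, adjusted p = 0.000311) and was well above background on all arrays. *Maged2* (-3.86 ± 0.47, adjusted p = 0.000488) and *Mageh1* (-1.60 ± 0.38, adjusted p = 0.0116) were lower too, but were well above background on 6 of 8 and 4 of 8 clone arrays and reached the floor on others, so no fold is given. All 3 lie on the X chromosome, unlike the members. The directions and calls stood under the other scalings tried, but the sizes moved, to -2.59 for *Maged2* and -0.71 for *Mageh1* under normexp, against -2.26 for *Maged1*.

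Taken as whole lists, other imprinted genes gave no common direction. Their calls are to be set against 9.16% higher and 13.1% lower over all probes. Of 36 tested probes of genes read from the paternal copy elsewhere in the genome, 5 were called higher and 4 lower (median 0.11). The higher ones were of *Gab1* (1.45), *Jade1* (1.48), *Sfmbt2* (1.12) and *Slc38a4* (1.43 and 0.71). The lower ones were of *Igf2* (-1.81 and -2.01) and *Rasgrf1* (-1.56 and -1.43). Further probes of *Sfmbt2* were not called. Both *Rasgrf1* calls and the 0.71 of *Slc38a4* were lost under some other scalings. Of 40 probes of genes read from the maternal copy 2 were higher and 4 lower (median -0.09). With the deposited values the paternal list gave 6 higher and 4 lower (median 0.35) and the maternal list 5 and 4 (median 0.07). Of 10 tested probes of genes that protect imprints in the early embryo, 1 was higher and 6 were lower (median -1.05). With the 75th percentile scaling or the deposited values 0 were higher and 6 lower.

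Over the 14 arrays, the deviations of the brightest *Ube3a* probe from its mean were most like those of *Ppp6r3*, *Med13l* and *Kdm7a*, among 13529 named genes detected on at least 7 arrays, with root mean square differences of 0.454, 0.479 and 0.493. Those of *Magel2* were most like 2510039O18Rik, *Apol10b* and *Psip1* (0.229, 0.233 and 0.250). Those of *Snrpn* were most like *Snurf* (0.148), followed by *Atp11b* (0.190) and *Ube2e3* (0.201). This is a description over arrays that share slides and scanners by group.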

How the data were processed

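RNA of the 14 blastocyst samples was amplified, labeled with Cy3 and hybridized to 1-color Agilent whole mouse genome arrays. The authors deposited, per array, the intensity of each spot from Feature Extraction, with background subtracted within the array and no normalization between arrays, and also a table of log2 values in which each array is shifted and each probe centred (column medians from -0.224 to 0.16). It had 0 columns without a sample. Groups came from the sample labels.

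The 1639 control spots were left out, and spots marked as outliers were set to missing. Processed intensities were brought to a common distribution over the arrays (quantile normalization), values under 16 were raised to 16, and the log2 values of a probe's spots were averaged. A probe entered a test if the software marked it well above background on 1 or more arrays in that comparison. Tests were run with limma 3.58.1 (lmFit and eBayes) in R 4.3.3, with Benjamini-Hochberg adjustment over all of them. The fifth comparison used 4 group means in 1 fit. Figures were drawn with matplotlib 3.10.9 in Python 3.11.15. Gene names of the files were updated through RefSeq for 79.5% of 41174 probes. The files' coordinates name no build and were used only for distances. The number of arrays limits the precision, and depth of the signal is given as detection per probe. The fits were also run on simulated normal values with known changes. These had no floor and no slide or scanner shift, so they cannot vouch for calls near the floor or between clones and IVF embryos.

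All 9 member probes are named. Of each list of partners and neighbours at most 4 called genes are named, by the smallest adjusted p with all clones against all IVF embryos. The members and lists were chosen with earlier results of these data known.

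Same-numbered replicates deviated together between male and female embryos (correlations 0.109 to 0.129) and not in the other comparisons, and the labels do not say what a number marks. Alternatives covered scaling, background, floor, filter, outlier spots, variance model, pooling of groups, a replicate block, gene means, the threshold of the study's methods (5% level and 2-fold, where no correction is named, taken here without adjustment) and each array left out.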

Additional observations from a re-analysis of the deposited data

Results flagged for a closer look

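The brightest *Ube3a* probe, A_51_P268977, read 13.12 in injection clone 4, whereas the other 3 injection clones read from 14.58 to 14.82. Its gap to the nearest of them was 0.861 of the range of the 4. Of 17 sets of 4 clones looked at in this way for the member probes, 1 stood out, and chance gives about 5% of such sets.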

How the results depend on the processing

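Over 604 alternative values of the member probes, 553 kept direction and side of the threshold, 30 lost a call, 2 gained one and 19 changed sign. Leaving out 1 array entered this tally only as the lowest and highest value of each probe and comparison. The 30 therefore do not count every call lost without 1 array, and those losses are given with each probe above. No called probe changed sign. Called probes that held in every alternative other than leaving out an array were, with all clones, both raised *Ube3a* probes (2.06 to 2.55 for A_52_P120968 and 2.50 to 2.83 for A_51_P268977, whose mean with the other 2 probes was 1.70), *Peg12* (1.54 to 2.79) and *Magel2* (-1.40 to -0.36). The *Snrpn* call held in 3 of 10.

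Against female embryos, members called in fusion clones (3 as reported) numbered 1 to 2 without 1 array, and in injection clones (2 as reported) 0 to 2. In injection clones the number was 1 with the 75th percentile, normexp, no filter or gene means, 0 with the deposited values or a floor of 1 or 32, and 4 at the threshold of the methods. Male against female embryos gave 1 member at that threshold, and all clones gave 3 of 6 genes with gene means.

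Over the whole array, leaving out 1 array gave 1114 to 2729 calls for fusion and 162 to 1043 for injection clones against female embryos, 0 to 2 between the kinds of clone, 1 to 15 between male and female embryos and 6484 to 7698 for all clones. Gene means gave 1847 for fusion clones and 5157 for all clones. The threshold of the methods gave 5587 for fusion clones, 4616 for injection clones, 781 between them and 1868 for males against females. For injection clones the deposited values gave 617, a floor of 1 gave 599, no filter 774, detection on every array of a group 1923 and all 4 groups in one fit 3097. Between the kinds of clone these were 2 (deposited values), 11 (floor of 1) and 1 (all 4 groups in one fit). Between male and female embryos they were 151 (deposited values), 100 (floor of 1), 34 (no filter), 57 (every array of a group) and 206 (all 4 groups), with 7 under normexp and 3 with a variance trend.

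With the replicate number as a block, 0 members and 0 probes of the whole array were called in fusion and in injection clones against female embryos and 0 probes between male and female embryos. With all clones, the replicate block left 7069 probes and 4 members called, and moved no other call of a member than that of *Snrpn*. The cause was not tested. Slide as a block was not run, since each slide held 1 group.

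Signs turned only where nothing was called. *Ndn* read 0.26 (75th percentile), 0.02 (normexp), 0.29 (deposited values) and -0.28 to 0.01 (1 array left out) in fusion clones, 0.19 (75th percentile), 0.22 (deposited values) and -0.27 to 0.02 (1 array left out) in injection clones, and 0.07 (75th percentile and deposited values), 0.05 (normexp) and -0.08 to 0.06 (1 array left out) between them. In injection clones *Snrpn* A_52_P354390 read -0.02 with the block and -0.06 to 0.11 with 1 array left out, and A_51_P168862 -0.04 under normexp. Between the clones *Mkrn3* ran from -0.33 to 0.07 and *Peg12* from -0.75 to 0.02 with 1 array left out, positive without fusion clone 1. Between the sexes *Ube3a* A_52_P625244 read -0.01 under normexp and -0.47 (without male 3) to 0.35 with 1 array left out, and *Mkrn3* ran from -0.93 to 0.76 (without male 1).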
